A study of Arabidopsis thaliana with 12 samples.

Results

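The subject is transcription outside protein-coding genes in Arabidopsis seedlings that lack the repressors VAL1 and VAL2. Of 233981 assembled loci on chromosomes 1 to 5, summed over 12 libraries, 5135 overlapped none of the 27444 annotated protein-coding genes by position. Loci of different libraries that overlapped one another were merged into 823 regions, which are the members described here. The study sequenced RNA of 14-day-old Arabidopsis thaliana seedlings of 4 genotypes, with 3 libraries each. The genotypes were the wild type (WT), val1, val2, and the double mutant val1 val2, which lacks both functions by its label. The alleles are not given in the labels, and all seeds had 3 days of cold at 4 °C in the dark, and the seedlings grew on plates with 1% sucrose at 22 °C in 16 h of light and 8 h of dark. VAL1 (AT2G30470, also HSI2) and VAL2 (AT4G32010, also HSL1) encode transcriptional repressors with a B3 DNA-binding domain that silence the seed programme after germination.

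Plant genomes transcribe many RNAs that encode no protein. MicroRNA genes give primary transcripts from which a DICER-LIKE enzyme cuts a hairpin, and the short product directs an ARGONAUTE protein to matching mRNAs. TAS transcripts are cut by such a complex and turned into trans-acting small RNAs. Small nucleolar RNAs guide the modification of ribosomal RNA, small nuclear RNAs belong to the spliceosome, and pseudogenes in this annotation include copies of transposable elements, which plants silence by small RNAs and DNA methylation. The primary transcript of a microRNA gene is not the mature microRNA, which these libraries were not described as measuring.

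Levels are given in FPKM (fragments scaled to locus length and library total) as deposited, per library in the order of replicates 1, 2 and 3. Where a library had no locus over a region, its value was taken as 0, which may be a failed assembly as well as a missing transcript. In 18 cases a library stood at 0 while both other libraries of its genotype reached 10 FPKM. A value is missing where a locus of that library ran from the region into a protein-coding gene, which applied to 948 of 9876 values in 218 regions. Short loci need care, because the FPKM of a locus near the length of a sequenced fragment is divided by a very small effective length. The files give no strand, so a transcript and its antisense partner cannot be told apart. Copies of a gene family may share fragments.

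Some libraries stood apart. In val1 replicate 1 and val1 val2 replicate 3 the locus over VAL1 was unbroken, at 4506 bases, whereas its longest locus measured 2369 to 2414 bases in val1 replicates 2 and 3 and val1 val2 replicates 1 and 2. In val1 val2 replicate 3 VAL1 stood at 22.6 FPKM, above the 14.5 to 17.7 of WT. The locus over VAL2 was likewise unbroken in val2 replicate 1 (5827 bases) and in val1 val2 replicates 2 and 3 (5649 and 5789), as in WT and val1, while its longest locus measured 3767 to 4046 bases in the remaining libraries of val2 and val1 val2. VAL2 stood at 9.73 to 11.3 FPKM in val2 and 12.6 to 13.2 in val1 val2, against 17.7 to 22.01 in WT and 11.05 to 15.2 in val1, so its level did not set val1 val2 apart from val1. The counts of called regions are also given without these 2 libraries, and most values of single regions are not. Across 605 regions with complete values, log2 values correlated at 0.904 to 0.964 (Pearson) between libraries of the same genotype in WT, val1 and val2, and at 0.799 to 0.828 within val1 val2. The genotypes also differed in the markers of the tissues sampled. The summed level of 7 embryo and seed reserve genes, among them the cruciferin CRA1, was 0 to 0.0530 FPKM in WT with 6 of the 7 at 0 in all 3 libraries. It was 100.04 to 114 FPKM in val1 and 13.8 to 17.2 in val2, and it reached 111596 in val1 val2. The lowest sum in val1 val2, 34571 FPKM in replicate 1, covers only CRA1, CRU3 and OLEO1. SESA1, SESA2, SESA3 and SESA4 had no value in that library, so its sum cannot be set beside the others. The 4 green leaf genes, among them the Rubisco subunit gene RBCS1A, summed to 11295 to 12783 FPKM in WT and 1320 to 4712 in val1 val2, and 4 root genes to 98.6 to 106 and 54.9 to 89.3. The root genes did not move together. From WT to val1 val2 the means of PRP3 and CASP1 fell, from 38.6 to 12.85 and from 29.65 to 5.2 FPKM. That of PHT1;1 rose from 34.2 to 55.2, and RHD6 was not called, at 1.03 and 1.55. How far these marker levels bear on the regions was not tested, and in seedlings sampled in bulk fewer cells of a type and less RNA per cell cannot be told apart.

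Most of the 823 regions lay on an annotated gene. Their median length was 1167 bases, with a range of 160 to 12891 bases. There were 9 regions under 200 bases, 58 from 200 to under 500, 261 from 500 to under 1000, 315 from 1000 to under 2000 and 180 of 2000 bases or more. By the annotated gene that each overlapped most, 146 lay on pseudogenes, 143 on long noncoding RNA genes, 137 on transcribed pseudogenes, 122 on genes of miscellaneous RNA, 101 on other noncoding RNA genes, 33 on microRNA genes, 27 on small nucleolar RNA genes, 6 on small nuclear RNA genes and 1 on an antisense RNA gene. A further 107 regions overlapped no annotated gene. Pseudogene regions were the longest class, with a median of 1959 bases, against 941 bases for long noncoding RNA genes and 830 for unannotated regions, of which 4 reached 2000 bases. Most regions lay close to a coding gene: the median distance was 438 bases, 141 regions lay within 100 bases and 264 at 1000 bases or more.

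Coverage of the annotation was uneven. The regions overlapped 63 of 326 annotated microRNA genes, 131 of 287 small nucleolar RNA genes, 113 of 221 noncoding RNA genes and 147 of 926 transcribed pseudogenes. They overlapped 170 of 3917 other pseudogenes, 235 of 3480 long noncoding RNA genes and 4 of 625 tRNA genes. Genes that overlap or lie inside coding loci could not be reached by the definition. The phosphate-starvation RNAs IPS1 and AT4, often described as noncoding, are annotated as protein-coding and so are not members.

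**Figure D1:**
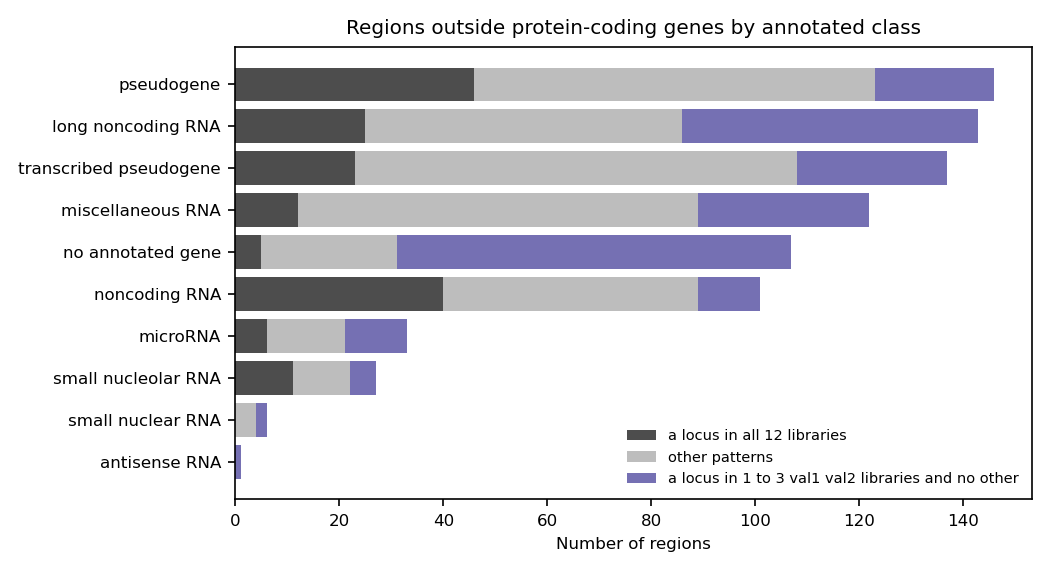
Number of regions (x axis) in each annotated class (y axis), split by the libraries in which a locus was assembled. Of unannotated regions, 76 of 107 had a value above 0 in val1 val2 libraries and no others, against 23 of 146 for pseudogenes. Missing values counted as no locus in this split.

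Which regions had a locus of their own differed between genotypes. A locus was assembled in all 12 libraries for 168 regions and in a single library for 178. There were 250 regions with a value above 0 in val1 val2 libraries and in no other, against 38 for WT, 18 for val1 and 25 for val2. In these counts by genotype a missing value, where a locus ran into a coding gene, counted as no locus. Some of the regions may therefore have been covered in other genotypes, and no like count over coding genes is given here. In 80 of the 250 all 3 val1 val2 libraries had the locus, while the same pattern held for 4 regions in val2, 1 in val1 and 0 in WT. Of the 107 unannotated regions, 76 were assembled in val1 val2 libraries and no other, and 48 of the 107 were assembled in a single library. The corresponding counts were 57 of 143 for long noncoding RNA genes, 12 of 33 for microRNA genes, 23 of 146 for pseudogenes and 12 of 101 for noncoding RNA genes.

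Per library, the double mutant listed more loci outside coding genes than the other genotypes. WT libraries listed 386, 399 and 385 such loci, val1 397, 399 and 395, val2 392, 375 and 363, and val1 val2 568, 550 and 526. All 3 val1 val2 libraries therefore lay above the other 9. The means were 390.0 ± 7.81 in WT and 548 ± 21.1 in val1 val2 (SD, n = 3), a difference of 158 with an exact two-sided permutation p = 0.1, which is the smallest that 3 libraries against 3 can give. The differences of val1 and val2 from WT, 7 and -13.3 loci, gave exact p = 0.4 and 0.3. The loci were 2.02% of all nuclear loci in WT and 2.72% in val1 val2, on average. Restricted to regions at least 500 bases from a coding gene, the means were 189 ± 6.43 and 283 ± 21.0, with the same exact p = 0.1.

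The share of all nuclear FPKM in these loci was mostly that of a few very short ones in the double mutant. The share was 0.672% ± 0.0589 in WT, 1.2% ± 0.132 in val1, 0.86% ± 0.311 in val2 and 5.94% ± 2.93 in val1 val2 (SD, n = 3). Exact two-sided permutation p was 0.1 for val1 and for val1 val2 against WT, the smallest possible, and 0.4 for val2, and the values of val1 and val2 depend in part on 1 ribosomal RNA region described below. Loci under 200 bases, of which the val1 val2 libraries listed 7, 9 and 6, held 88.8%, 78.5% and 75.1% of the FPKM outside coding genes there. Without them the share was 0.604% ± 0.0366 in WT, 0.835% ± 0.0809 in val1, 0.686% ± 0.123 in val2 and 1% ± 0.0895 in val1 val2, with exact p = 0.1 again for val1 and val1 val2. The val1 and val2 shares include the ribosomal RNA region, which counted in val1 replicates 1 and 3 and val2 replicate 2 and was left out of WT and val1 val2, where its locus ran into a coding gene. Without this region, a setting added after the data were seen, the share of loci of at least 200 bases was 0.680% ± 0.0570 in val1 and 0.635% ± 0.0606 in val2 (SD, n = 3). The difference of val1 from WT then fell from 0.231 to 0.0754 percentage points, and the lowest val1 library, at 0.644%, lay next to the highest WT library, at 0.642%. With short loci included, val1 stood at 1.05% ± 0.108 without it.

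**Figure D2:**
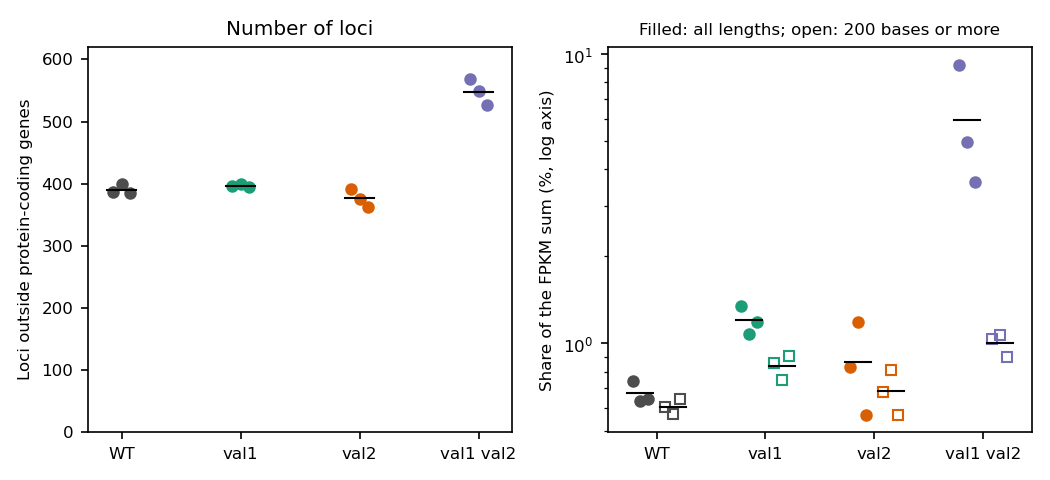
Left, number of loci outside protein-coding genes in each library (y axis, points) by genotype (x axis). Right, their share of the nuclear FPKM sum in percent on a log axis, for all loci (filled) and for loci of at least 200 bases (open). Black lines are means of 3 libraries. The 3 val1 val2 libraries lie above all others on the left and, for all loci, on the right.

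The short loci were as follows. AT5G06845, a long noncoding RNA gene, was covered by a region of 177 bases on chromosome 5 (chr5:18891008-18891185 in the files' TAIR10 coordinates). Its region stood at 53824, 21941 and 18095 FPKM in the val1 val2 libraries and at 0 in the other 9 (limma adjusted p = 7.8e-11 against WT). The authors' confidence intervals for these 3 loci ran from 47472 to 62666, 19313 to 24819 and 15202 to 21611 FPKM. AT5G00590, a miscellaneous RNA gene, had a region of 169 bases that began 1 base from the coding gene AT5G46115. It stood at 17977, 9046 and 5533 FPKM in val1 val2 and at 0 elsewhere (limma adjusted p = 2e-10). Both were therefore assembled in all 3 libraries of the double mutant and in none of the other genotypes. Both entered the test, described below, through val1 val2 alone, so their adjusted p-values are no independent support. A further 2 loci of this size rested on single libraries and could not be tested, AT5G00660 (161 bases) at 11532 FPKM in val1 val2 replicate 1 and AT4G06795 (160 bases) at 6319 FPKM in val1 val2 replicate 2. AT5G08155, with 219 bases and 45 bases from PORA, the gene of a protochlorophyllide reductase, stood at 2366, 2046 and 1001 FPKM in val1 val2, at 0, 273 and 237 in val1, at 0, 306 and 0 in val2, and at 0 in WT replicates 1 and 3 with no value in replicate 2 (limma adjusted p = 0.00812 for val1 val2 against WT).

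The levels of single regions were then compared between genotypes. One limma fit on log2(FPKM + 1) held coding genes and regions together, 18690 features in all, with adjusted p-values over all of them, and a feature was called at an adjusted p under 0.05. Of the 823 regions, 418 were tested, 269 were too low (under 1 FPKM in all but at most 2 libraries) and 136 had fewer than 2 values in a genotype. Differences are on the log2(FPKM + 1) scale, which understates those of low regions, and no fold is given against a genotype at 0.

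In the double mutant, most tested regions differed from WT. Of the 418 regions, 281 were called in val1 val2 against WT, 180 higher and 101 lower. Among all features tested 58.5% were called, 24.8% higher and 33.8% lower, against 43.1% and 24.2% of the regions. The sign of the balance thus differed between regions and features, and the median difference was 0.46 over the regions and -0.14 over all features. These counts depend on how regions entered the test. Of the 180 regions called higher, 88 had WT at 0 in each library with a value and 67 were at 0 in all 9 other libraries, and the latter passed the filter through the double mutant alone, so their adjusted p-values, where printed, are no independent support. Among 166 tested regions with a value above 0 in all 12 libraries, 53 were called higher and 56 lower (31.9% and 33.7%), against 21.3% and 35.9% of the 14438 features with such values, and the median difference was -0.08 against -0.18. The set of 166 was chosen after the data were seen. Leaving out a library of the double mutant removed such regions from the test: without replicate 1, 88 were called higher and 92 lower, without replicate 2, 85 and 85, and without replicate 3, 103 and 109. Without val1 replicate 1 and val1 val2 replicate 3, 319 regions were tested and 99 were called higher and 103 lower.

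The counts of calls by class are set beside 24.8% higher and 33.8% lower over all features. Of 72 tested regions on long noncoding RNA genes, 40 were called higher and 11 lower in val1 val2 against WT. Of 32 unannotated regions 23 were higher and 2 lower, and of 60 on miscellaneous RNA genes 28 were higher and 6 lower. Noncoding RNA genes had 24 higher and 14 lower among 68. Pseudogenes had 25 higher and 36 lower among 82, and transcribed pseudogenes 23 of each among 64. The median differences were 1.14 for long noncoding RNA genes, 1.91 for unannotated regions, -0.35 for pseudogenes and -0.02 for transcribed pseudogenes, beside -0.14 for all features. By length, regions of 2000 bases or more had 39 higher and 42 lower among 109, and those from 500 to under 1000 bases 53 higher and 25 lower among 123. These counts moved with the settings. Over the settings tried, unannotated regions had 4 to 43 called higher, regions over any long noncoding or antisense RNA gene 14 to 67, and regions over any pseudogene 21 to 70 higher and 35 to 68 lower. Without the 2 libraries with an unbroken VAL1 locus, unannotated regions had 4 higher and 3 lower among 13, long noncoding or antisense RNA genes 22 and 16 among 62, and pseudogenes 34 and 61 among 133. Regions at 0 outside val1 val2 cannot pass the filter in that setting, so part of this loss of rises was fixed in advance. No test was made of these differences between classes, which also differ in level and in how many regions were at 0 in WT.

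**Figure D3:**
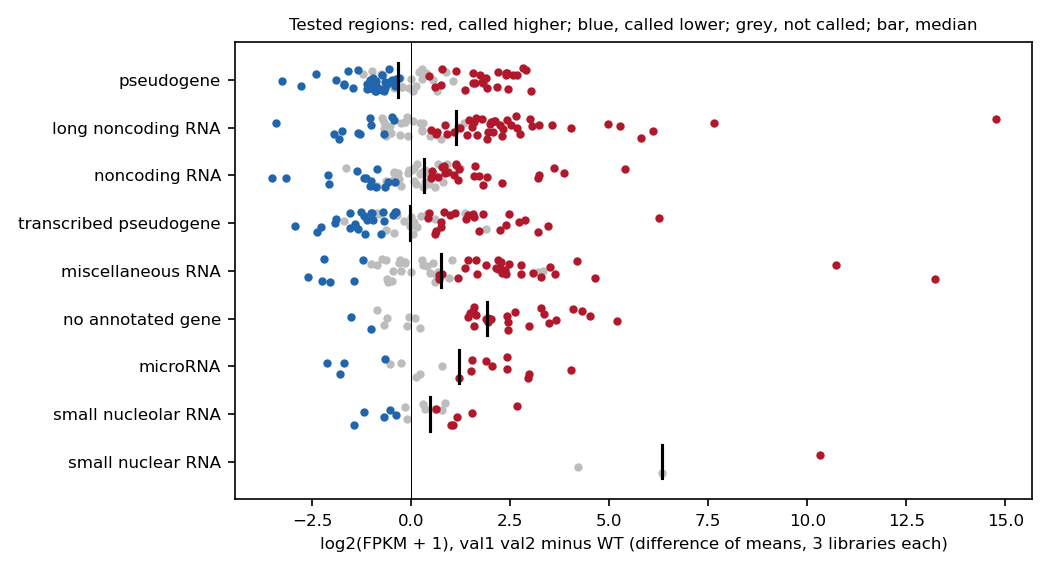
Difference between val1 val2 and WT on the log2(FPKM + 1) scale (x axis) for each of the 418 tested regions (points) by annotated class (y axis), with the median of each class as a bar. Points lie mostly to the right of 0 for unannotated regions, 23 of 32 called higher, and on both sides of 0 for pseudogenes, 25 called higher and 36 lower.

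Regions over microRNA genes changed in both directions in the double mutant. Of 56 regions that overlapped a microRNA gene, 34 were tested. In val1 val2 against WT 16 were called higher and 10 lower, beside 24.8% and 33.8% of all features, while 0 of the 34 were called in val1 or in val2 against WT, beside 3.58% and 4.01% of all features. The median difference was 0.35 in val1 val2, beside -0.14 over all features. Only 19 of the 34 had a microRNA gene as the gene overlapped most, and of these 10 were called higher and 4 lower. The others lay mainly on another annotated gene, so their levels may be those of that transcript. Without the 2 libraries with an unbroken VAL1 locus, 25 of the 56 were tested, with 7 called higher and 10 lower in val1 val2. The median difference was then -0.22, and 1 was called lower in val1 and 1 higher in val2. Regions at 0 outside val1 val2 cannot pass the filter of 3 libraries in this setting, or where 1 val1 val2 library is left out. The lower count of rises and the change of the median therefore do not show how such regions depend on these libraries. Of the 56 regions, 7 were assembled in all 3 val1 val2 libraries and in no other library. They are MIR399b, MIR399c, MIR827, MIR394a, MIR849 and MIR864, which are among the 16 and entered the test through val1 val2 alone, and MIR846, which was too low to be tested. Over the settings tried, 3 to 21 regions were called higher and 4 to 12 lower.

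MiR156 and miR157 repress the SPL transcription factors and so delay the adult phase, and their genes moved in opposite directions. The region over MIR156a (3160 bases, within the annotated transcript AT2G08100) stood at 1.1, 1.13 and 4.53 FPKM in WT against 24.6, 8.23 and 6.03 in val1 val2, a difference of 2.02 (SE 0.47, limma adjusted p = 0.00357). MIR156c stood at 5.9, 4.76 and 5.18 FPKM in WT against 25.7, 18.2 and 10.2 in val1 val2 (difference 1.51, limma adjusted p = 0.000904). All 3 double mutant libraries were above all 3 WT libraries for both genes, and neither single mutant passed the test against WT, at 5, 3.1 and 3.36 FPKM in val1 and 4.93, 3.61 and 5.39 in val2 for MIR156c. MIR157a (within AT1G08847) instead fell from 18.3, 13.8 and 10.5 FPKM in WT to 2.65, 1.9 and 7.36 in val1 val2 (difference -1.74, limma adjusted p = 0.00142). MIR157c fell from 5.06, 4.66 and 7.5 to 0, 1.03 and 2.34 FPKM (difference -1.81, limma adjusted p = 0.00111). In each of these genes the values of the 2 genotypes did not overlap.

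Genes of miR399 and miR827 were listed in the double mutant and at or near 0 elsewhere. MiR399 represses the ubiquitin-conjugating enzyme PHO2 and miR827 the gene NLA, both regulators of phosphate uptake. MIR399b stood at 7.18, 5.08 and 2.01 FPKM in val1 val2, MIR399c at 3.5, 1.95 and 4.3 and MIR827 at 10.9, 6.45 and 4.19. All 3 were at 0 in the other 9 libraries (limma adjusted p = 4.1e-05, 7.4e-06 and 2.6e-06 against WT). MIR399d stood at 1.13, 1.07 and 0 FPKM in WT against no value, 30.4 and 22 in val1 val2 replicates 1, 2 and 3 (limma adjusted p = 0.0002), a call that was lost when the missing value was set to 0 (limma adjusted p = 0.0757). The regions of MIR827 and MIR399b began 2 and 58 bases from a coding gene, so reads that run on from the neighbour cannot be told apart from their own.

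Some genes of miR319, miR166, miR160, miR394 and miR168 were also called higher. MiR319 represses TCP factors of leaf growth, and MIR319b stood at 1.88, 0 and 0 FPKM in WT against 9.49, 5.87 and 5.22 in val1 val2 (limma adjusted p = 0.000799). MIR319a, within AT4G07170, stood at 0.805, 0.965 and 0 and 4.96, 3.57 and 2.85 FPKM (limma adjusted p = 0.0123). This call was lost when WT replicate 3 was left out. MiR166 represses the HD-ZIP III genes of leaf polarity, and MIR166a rose from 0.989, 1.2 and 1.25 FPKM to 5.23, 4.78 and 2.29 (difference 1.19, SE 0.21, limma adjusted p = 0.000705). MiR160 represses auxin response factors, and MIR160a, within AT2G09010, stood at 1.49, 1.67 and 0.971 and 4.2, 5.2 and 2.94 FPKM (difference 1.09, limma adjusted p = 0.000746), which was not called on the highest FPKM as listed (limma adjusted p = 0.264). MIR160b did not pass the test, at 1.62, 1.07 and no value in WT against 1.87, no value and 1.255 FPKM in val1 val2 (difference 0.13, limma adjusted p = 0.661). MIR394a, whose product represses the F-box gene LCR, was listed at 1.9, 1.89 and 1.89 FPKM in val1 val2 and at 0 elsewhere (limma adjusted p = 1.3e-06). MIR864 and MIR849 showed the same pattern at 8.64, 8.3 and 4.4 and 3.11, 2.78 and 2.32 FPKM. MIR168a, which targets AGO1, stood at 3.27, 3.14 and 2.9 FPKM in WT against 8.22, 4.69 and 4.07 in val1 val2 (difference 0.65, limma adjusted p = 0.0175), and this call too was lost when WT replicate 3 was left out.

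Other microRNA genes fell. The transcript AT4G13495, which holds MIR850 and MIR5026, was the most abundant of them, at 173, 169.7 and 174 FPKM in WT against 31.4, 33.8 and 60.5 in val1 val2 (difference -2.08, SE 0.21, limma adjusted p = 1.3e-05). In val1 it stood at 113, 120.2 and 119 and in val2 at 186, 245 and 202 FPKM, neither of which passed the test (limma adjusted p = 0.206 and 0.555). MIR171c, of a family that represses GRAS factors of the shoot meristem, was at 3.28, 3.24 and 3.57 FPKM in WT and at 0 in the 3 val1 val2 libraries (limma adjusted p = 0.000544). MIR414 fell from 41.3, 25.5 and 24.3 to 5.78, 7.9 and 13.1 FPKM (difference -1.68, limma adjusted p = 0.00022). MIR167a, of a family that represses auxin response factors, fell from 1.93, 2.09 and 1.77 to 1.02, 0.842 and 0.678 FPKM (difference -0.67, limma adjusted p = 0.00136). Levels of these 4 regions in val1 val2 lay below those of WT in every library. MIR167d, of the same family as MIR167a, lay the other way. It stood at 0, 1.19 and 0.938 FPKM in WT against 3.01, 1.35 and 1.23 in val1 val2, and did not pass the test (difference 0.77, limma adjusted p = 0.0534). MIR162a, whose product targets DCL1, was at 15.5, 16.1 and 12.2 FPKM in WT against 18, 16 and no value in val1 val2 and did not pass the test (limma adjusted p = 0.32).

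**Figure D4:**
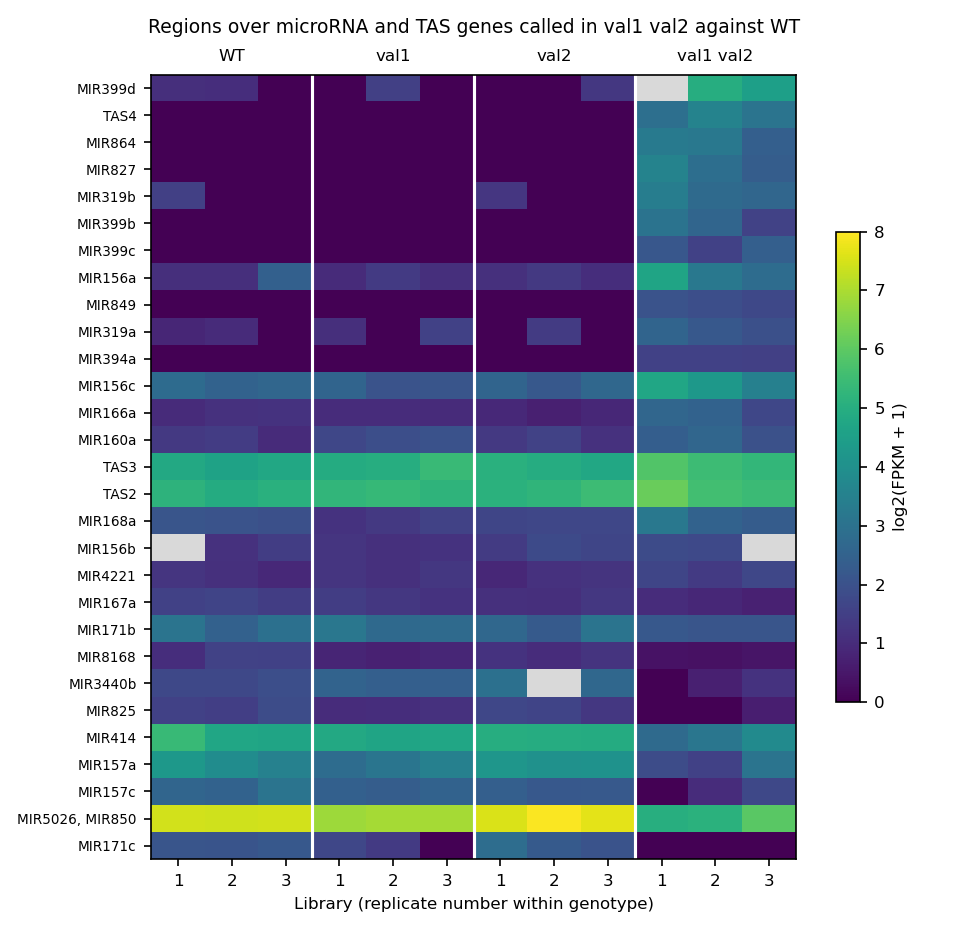
Level of each region over a microRNA or TAS gene called in val1 val2 against WT (rows, ordered by the difference) in each library (columns), as log2(FPKM + 1) from 0 (dark) to 8 or more (light). Grey cells are missing values. The upper rows, such as MIR827 and TAS4, are dark in 9 libraries and lighter in the 3 val1 val2 libraries.

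Some TAS transcripts rose. Of 7 regions over TAS genes 6 were tested, and in val1 val2 against WT 3 were called higher and 0 lower, beside 24.8% and 33.8% of all features. Without the 2 libraries with an unbroken VAL1 locus, where regions at 0 outside val1 val2 cannot pass the filter, 2 of 5 were called higher. TAS4 (AT3G25795), the source of small RNAs against MYB factors of anthocyanin synthesis, stood at 6.6, 10.9 and 7.42 FPKM in val1 val2 and at 0 in the other 9 libraries (limma adjusted p = 6.9e-08), so it entered the test through val1 val2 alone. TAS3, the source of small RNAs against auxin response factors, rose from 27.4, 23.6 and 26.8 FPKM in WT to 55.9, 43.6 and 38.4 (difference 0.79, SE 0.17, limma adjusted p = 0.00226). TAS2 rose from 34.8, 29.3 and 32.5 to 71, 46.4 and 43.1 FPKM (difference 0.68, SE 0.18, limma adjusted p = 0.00721). The 3 val1 val2 libraries lay above WT for both. TAS1A varied widely within genotypes, at 45.3, 9.84 and 25.9 FPKM in WT, 76.6, 97.4 and 29.6 in val1, 64.7, 42.8 and 72 in val2 and 52, 39.9 and 39.1 in val1 val2, and TAS1B and TAS1C did not pass the test either. In val1 and in val2 against WT, 0 of the 6 were called.

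The coding genes that process or act through noncoding RNA were examined beside them. Of 28 such genes 8 were called higher and 5 lower in val1 val2 against WT, beside 24.8% and 33.8% of all features, and the median difference was -0.15. The share called higher was close to that of all features, so no change of a pathway is read from it. Those higher included some genes of RNA-directed DNA methylation, the pathway that silences transposons and repeats through small RNAs. NRPD1, the large subunit of RNA polymerase IV, stood at 1.35 ± 0.178 FPKM in WT against 11.2 ± 2.63 in the double mutant (SD, n = 3; limma difference 2.36, adjusted p = 8.2e-07). NRPE1, the large subunit of RNA polymerase V, stood at 3.36 ± 0.281 and 12.7 ± 1.99 FPKM (limma difference 1.65, adjusted p = 5e-06). The effector AGO4 stood at 16.6 ± 2.46 and 65.5 ± 15.3 FPKM, and the methyltransferase DRM2 at 8.21 ± 0.407 and 21.8 ± 3.3 (limma adjusted p = 2.7e-05 and 1.7e-05). DCL3 and DDM1 were called higher as well (limma adjusted p = 0.0206 and 0.0315). RDR2, of the same pathway, was not called, at 2.55 ± 0.199 and 2.45 ± 0.302 FPKM (limma adjusted p = 0.807). The methyltransferase genes MET1 and CMT3 did not pass the test either (limma adjusted p = 0.402 and 0.0775). HST, which exports microRNAs, and AGO7, which acts on TAS3, were also higher, at 12.5 ± 1.42 against 6.69 ± 0.818 FPKM and 4.99 ± 0.507 against 2.62 ± 0.165. RDR6, which makes the TAS transcripts double-stranded, was lower at 8.11 ± 0.896 against 12.1 ± 0.578 FPKM (limma adjusted p = 0.00164), as were DCL4 and XRN2. DCL1 and AGO1 did not pass the test (limma adjusted p = 0.126 and 0.704). In val1 against WT 1 of the 28 was higher and 2 lower, and in val2 1 was higher and 0 lower. The 1 higher in val1 was NRPE1, at 8.52 ± 1.08 FPKM (limma difference 1.12, adjusted p = 0.00162), so its rise was not confined to the double mutant. AGO7, higher in val1 val2, was lower in val1, at 1.39 ± 0.173 FPKM (limma adjusted p = 0.0165). SGS3 was lower in val1 and higher in val2 (limma adjusted p = 0.00447 and 0.0397).

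Regions over small nucleolar and small nuclear RNA genes were also described. Of 49 regions over small nucleolar RNA genes 28 were tested, and in val1 val2 against WT 10 were called higher and 5 lower, beside 24.8% and 33.8% of all features. Over the settings tried 3 to 18 were called higher and 3 to 6 lower, and without the 2 libraries with an unbroken VAL1 locus 7 and 3 among 24. That setting removes regions at 0 outside val1 val2 from the test. The region of AT2G04955, which holds 3 such genes, rose from 9.02, 7.18 and 6.2 FPKM in WT to 23.9, 17.9 and 10.4 (limma adjusted p = 0.00362). The most abundant, AT2G08585, fell from 141, 137 and 136 to 41.2, 51.4 and 58.9 FPKM (difference -1.45, limma adjusted p = 3.4e-06). In val1 against WT 0 were higher and 3 lower (0 to 5 lower over the settings, beside 1.57% of all features), among them, chosen after its values were seen as was AT2G04955, AT3G08165 at 13.8, 15.4 and 13.7 FPKM against 21.3, 18.6 and 18.8, and in val2 this same region was lower at 12.3, 11.3 and 11.1 FPKM (limma adjusted p = 0.0415 and 0.00371). These regions are longer than the RNAs themselves, with a median of 961 bases, and which transcript each covers was not tested.

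The spliceosomal U2 RNA genes showed how assembly limits such values. U2.2 was listed at 1649.5, 1510.0 and 824 FPKM in val1 val2 and at 0 in the other 9 libraries (limma adjusted p = 6.9e-11). U2.4 was listed at 1244, 1219.6 and 1255 FPKM in val1, at 600.4 in WT replicate 1, 846 in val2 replicate 2 and 888 in val1 val2 replicate 2, and, with too few values in val2 and val1 val2, was not tested. U2.6 was listed at 1373, 0 and 0 FPKM in val1 and 927, 569 and 0 in val1 val2, with 0 in WT and val2. The copies are near-identical, so how fragments were assigned among them is uncertain. The ribosomal RNA region on chromosome 3 (chr3:14197125-14203419) behaved likewise. A locus of 1529 to 2970 FPKM lay over it in 11 of the 12 libraries and none in val1 replicate 2, and in 8 of these it ran into a coding gene, so no comparison was made. The 2 regions over tRNA genes were not tested.

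Long noncoding RNA genes and unannotated regions gave 57 and 76 of the 250 regions with a value above 0 in the double mutant and in no other genotype. AT1G21529, a noncoding RNA gene, stood at 81.4, 43 and 19.6 FPKM in val1 val2, and the transcribed pseudogene AT1G21525 on the same chromosome at 179.9, 46.4 and 50, both at 0 in the other 9 libraries (limma adjusted p = 7.4e-07 and 4.1e-07). AT2G08820 was present in WT at 5.83, 6.11 and 2.66 FPKM and reached 250.5, 185 and 217 in val1 val2 (difference 5.27, SE 0.55, limma adjusted p = 1.6e-05). AT3G57157 stood at 5.66, 8.05 and 5.14 FPKM in WT against 109, 50.9 and 52.9 in val1 val2 (difference 3.23, limma adjusted p = 4.7e-06). Val1 val2 lay far above the other 3 genotypes for both. AT4G06810 was at 18.8, 19 and 0 FPKM in WT against 325, 496 and 412 in val1 val2, and AT1G09793 at 0 in WT and 71.6, 67.5 and 63.4 in val1 val2 (limma adjusted p = 0.00205 and 2.2e-05). AT5G09065 was listed at 36.3, 536 and 394 FPKM in val1 val2 and 0 elsewhere.

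Among unannotated regions, the one at chr2:1135806-1136337, 531 bases long and 1234 bases from ACR5, stood at 49.8, 44 and 20.7 FPKM in val1 val2 and at 0 in the other 9 libraries (limma adjusted p = 5.7e-08). The region at chr1:8547334-8547825 (491 bases, 1365 bases from FH4) stood at 14.8, 16.1 and 28.5 FPKM and at 0 elsewhere (limma adjusted p = 3.8e-08). A longer one at chr1:11453407-11456118, of 2711 bases, was transcribed in all genotypes, at 12.6, 15.1 and 17 FPKM in WT against 52.3, 41.1 and 98.1 in val1 val2 (difference 1.94, limma adjusted p = 0.00691). The most abundant unannotated region, chr3:12559403-12560056, stood at 88.6, 82.6 and 78.9 FPKM in WT against 101, 79.7 and 56.1 in val1 val2, and the groups overlapped. The region next to FH4 was chosen after its values were seen.

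Regions that fell in the double mutant included noncoding RNA genes and pseudogenes with high levels in WT. AT4G12917, a noncoding RNA gene, stood at 9.5, 22.4 and 5.18 FPKM in WT, 8.11, 9.42 and 8.15 in val1, 6.64, 15.8 and 18.3 in val2 and 0 in val1 val2 (limma adjusted p = 5.8e-05). AT5G03615 fell from 13.2, 24.2 and 41 to 2.18, 0 and 2.96 FPKM (limma adjusted p = 0.00014). AT4G04692, a transcribed pseudogene among the most abundant regions, fell from 147, 147 and 164 to 28.6, 35.3 and 64 FPKM (difference -1.90, SE 0.23, limma adjusted p = 4.8e-05), and AT2G20724 from 103, 99.7 and 119 to 46, 52.4 and 59.9 (difference -1.01). AT1G10682, the noncoding RNA gene with the highest mean, fell from 286, 213 and 255 to 139, 102 and 134 FPKM (difference -1.01, limma adjusted p = 0.000449). All val1 val2 libraries lay below WT in these 5 regions. GUT15, a noncoding RNA gene, stood at 268 and 196 FPKM in WT replicates 2 and 3 and 126, 83.3 and 93.1 in val1 val2 (difference -1.20, limma adjusted p = 0.000603). With its missing WT value set to 0, this difference turned positive at 1.41 (limma adjusted p = 0.478).

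SADHU elements, a family of plant retroposons annotated as pseudogenes, fell together in part. Of 9 SADHU regions 8 were tested, and in val1 val2 against WT 0 were called higher and 6 lower, beside 33.8% lower over all features, with a median difference of -0.75. The counts were 0 and 6 as well without the 2 libraries with an unbroken VAL1 locus, and 4 to 7 lower over the settings. SADHU1-1 fell from 166, 158 and 169 FPKM to 91.1, 106 and 146 (difference -0.55, limma adjusted p = 0.00898), SADHU1-2 from 24.9, 22.4 and 23.9 to 16.4, 15.4 and 14.2 (difference -0.60) and SADHU4-1 from 7.97, 6.27 and 7.17 to 3.45, 2.79 and 5.08 (difference -0.79). SADHU3-2 did not pass the test, at 4.03, 5.43 and 1.57 and 2.02, 3.23 and 4.69 FPKM. The list was formed with these values known, so its count describes these libraries. In the MUG family, genes derived from transposases, MUG1 fell from 15.1, 15.2 and 14.2 to 5.63, 5.92 and 7.65 FPKM and MUG8 from 10.2, 9.65 and 12.1 to 6.02, 6.04 and 6.97 (limma adjusted p = 1.5e-05 and 0.000588). They and CYTOSLEEPER were chosen after their values were seen. CYTOSLEEPER, annotated as a pseudogene, rose instead, from 1.12, 1.09 and 0.961 FPKM to 9.56 and 7.45 in val1 val2 replicates 2 and 3 (limma adjusted p = 2.9e-06). The 5 longest regions, of 9490 to 12891 bases, were pseudogenes in 4 cases, and 3 of the 5 were called lower in val1 val2 against WT. One was AT4G08100 (11728 bases), at 3.88, 4 and 6.66 FPKM in WT against 0.582, 0.814 and 0.95 in val1 val2 (difference -1.69, limma adjusted p = 1.5e-05).

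Set against each single mutant, the double mutant gave similar counts. In val1 val2 against val1, 266 regions were called, 177 higher and 89 lower, beside 57.6% of all features, 25.7% higher and 31.9% lower. In val1 val2 against val2, 284 were called, 185 higher and 99 lower, beside 59.2% of all features, 25.2% higher and 34.0% lower. Both comparisons share the val1 val2 libraries with that against WT. There were 147 regions higher and 65 lower in all 3. The share over all features is not given for this count, and it includes regions that entered the test through val1 val2 alone. Without the 2 libraries with an unbroken VAL1 locus, 173 regions were called against val1 and 201 against val2, of 319 tested. Regions at 0 outside val1 val2 cannot pass the filter in that setting.

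The single mutants changed far fewer regions. In val1 against WT, 33 of 418 regions were called, 18 higher and 15 lower, beside 3.58% of all features, 2.02% higher and 1.57% lower. In val2 against WT, 21 were called, 7 higher and 14 lower, beside 4.01% of all features, 1.55% higher and 2.47% lower. The share of the regions called was 7.89% and 5.02%. At an unadjusted p under 0.05, 115 and 75 regions passed, and the share over all features at this threshold is not given. Without val1 replicate 1 the val1 count was 20, and with both libraries of unbroken VAL1 left out it was 33 for val1 and 30 for val2, of 319 tested.

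Rises in val1 included pseudogenes. The pseudogene AT3G42806, on chromosome 3 and 10016 bases from a coding gene, stood at 31.9, 28.8 and 42.1 FPKM in WT, 42.2, 31.6 and 37.3 in val2, 163, 187 and 144 in val1 and 117, 143 and 129 in val1 val2 (val1 against WT difference 2.24, SE 0.17, limma adjusted p = 3e-05). Its 6 libraries with the val1 label were thus all above the other 6. The pseudogene AT2G22710 followed the same pattern at a lower level, with 4.9, 4.51 and 4.17 FPKM in val1, 7.65, 8.96 and 5.39 in val1 val2 and 0 in WT and val2 (limma adjusted p = 8.8e-06). AT1G05397, a long noncoding RNA gene, was at 2.91, 3.14 and 2.03 FPKM in val1, 2.78, 5.04 and 2.5 in val1 val2 and 0 in the other 6 libraries (limma adjusted p = 0.000486). AT2G22710 and AT1G05397 entered the test through val1 and val1 val2 alone, so their adjusted p-values are no independent support for this pattern. The pseudogene AT3G21030 and an unannotated region at chr1:13602767-13603818 showed it too, with the same limit. The noncoding RNA gene AT3G61198 was at 3.39, 4.11 and 4.72 FPKM in WT and 9.6, 13.1 and 12.3 in val1 (difference 1.32, limma adjusted p = 0.000742), and AT4G04223 at 8.89, 14.5 and 15.9 and 40.7, 31.9 and 42.8 (limma adjusted p = 0.0136), the latter call lost without WT replicate 1, val1 replicate 1 or val1 replicate 3.

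Falls in val1 included regions that were absent there. AT3G30122, a transcribed pseudogene, stood at 5.19, 3.81 and 3.64 FPKM in WT and 4.06, 3.11 and 3.59 in val2 and at 0 in all 6 val1 and val1 val2 libraries (limma adjusted p = 5.8e-06). It entered the test through WT and val2 alone, so this adjusted p-value is no independent support. AT3G00580, a miscellaneous RNA gene on the same chromosome, showed the same pattern with the same limit, at 1.23, 2.33 and 1.7 FPKM in WT. The pseudogene AT2G06950 fell from 39.6, 37.8 and 39.7 FPKM in WT to 12.8, 12.4 and 16.9 in val1 and stood at 35.1, 40 and 36.9 in val2 and 6.53, 6.59 and 6.44 in val1 val2 (val1 against WT difference -1.43, SE 0.12, limma adjusted p = 6.5e-05). The transcribed pseudogene AT5G14840 fell from 19.5, 18.3 and 17.7 to 7.24, 7.63 and 6.64 FPKM (difference -1.25, limma adjusted p = 0.000764), but not on the highest FPKM as listed (limma adjusted p = 0.503).

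**Figure D5:**
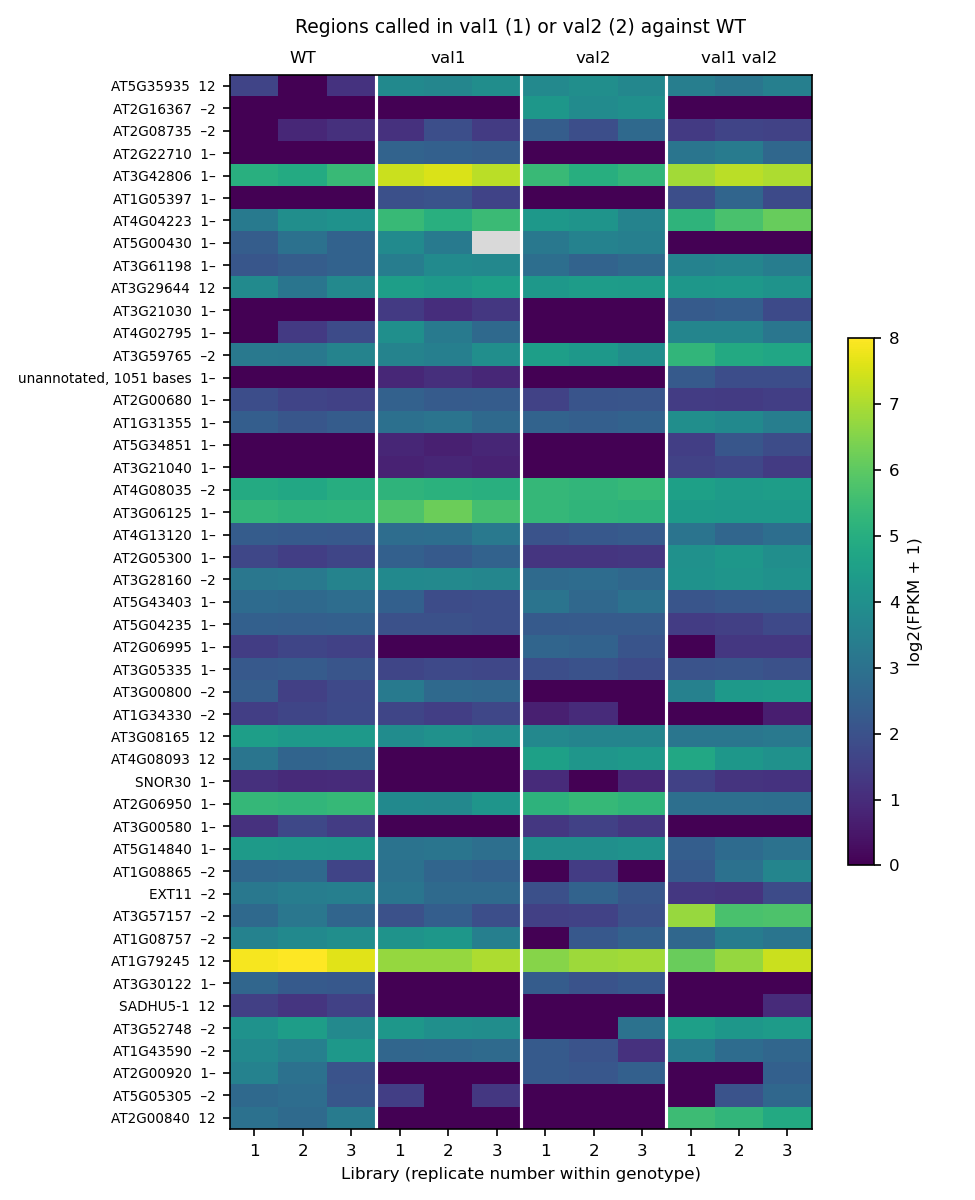
Level of each of the 47 regions called in val1 (marked 1) or val2 (marked 2) against WT, or in both, in each library (columns), as log2(FPKM + 1) from 0 (dark) to 8 or more (light). Grey is a missing value. AT3G42806 is lighter in the val1 and val1 val2 libraries, and AT2G16367 stands out in the 3 val2 libraries alone.

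In val2, AT2G16367 was listed in that genotype alone. AT2G16367, a transcribed pseudogene of which 391 bases were assembled 162 bases from AT2G16365, stood at 17.9, 13.6 and 15 FPKM in val2 and at 0 in the other 9 libraries, val1 val2 included. It entered the test through val2 alone, so its values are given as a description. The 3 val2 libraries thus stood apart from the double mutant, which is labelled with the same mutation. The noncoding RNA gene AT3G59765 stood at 8.48, 8.28 and 11 FPKM in WT, 21.5, 18.4 and 14.1 in val2 and 37.8, 27.8 and 25.6 in val1 val2 (val2 against WT difference 0.88, limma adjusted p = 0.0363, a call lost on leaving out WT replicate 1 or 2, val1 replicate 1 or either of val2 replicates 1 and 2). Falls in val2 included the pseudogene AT1G43590, from 12.8, 10.1 and 18.3 FPKM in WT to 3.77, 3.12 and 1.21 (difference -2.03, SE 0.30, limma adjusted p = 0.00474). AT3G00800 was at 4.13, 1.87 and 2.42 FPKM in WT, 0 in val2 and 10.3, 18.9 and 19.8 in val1 val2 (limma adjusted p = 0.00443 for val2 against WT). AT3G52748, next to the plastid division gene FTSZ2-2, stood at 16, 21.1 and 12.7 FPKM in WT and 0, 0 and 7.06 in val2 (limma adjusted p = 0.0235). Leaving out replicate 1 or 2 of either genotype ended this call. Leaving out val2 replicate 1 lowered the count of 21 to 9, the lowest over single libraries.

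There were 7 regions called in both single mutants, which share the WT libraries, and 6 of them in the same direction. These were 7 of the 33 in val1 and of the 21 in val2, and no like count over all features is given. The pseudogene AT5G35935 stood at 2.13, 0 and 1.28 FPKM in WT, 13, 11.6 and 14.2 in val1, 12.6, 14.5 and 11.9 in val2 and 9.81, 7.81 and 9.89 in val1 val2 (limma adjusted p = 0.000695 and 0.00113 for val1 and val2). SADHU5-1 was at 1.88, 1.37 and 1.94 FPKM in WT and at 0 in all 6 single mutant libraries (limma adjusted p = 0.00713 and 0.00864). It was called lower in val1 val2 against WT as well. AT2G00840, a miscellaneous RNA gene, was at 6.87, 5.74 and 9.15 FPKM in WT, at 0 in all 6 single mutant libraries and at 43.5, 37.6 and 28.2 in val1 val2 (limma adjusted p = 5.5e-06 and 2e-05 for val1 and val2 and 2.8e-06 for val1 val2 against WT). The double mutant was thus above WT where both single mutants were below. SADHU5-1 and AT2G00840 entered the test through genotypes other than the single mutants. Their adjusted p-values for val1 and val2 are therefore no independent support. AT4G08093, a transcribed pseudogene, was the region with opposite directions, at 7.71, 4.99 and 5.33 FPKM in WT, 0 in val1, 22.4, 17.4 and 18.6 in val2 and 26.9, 17.8 and 15.6 in val1 val2 (limma adjusted p = 2.8e-05 and 0.00264). AT1G79245, one of the most abundant transcribed pseudogenes, stood at 235, 307 and 198 FPKM in WT, 105, 104 and 128 in val1 and 93.2, 113 and 117 in val2 (limma adjusted p = 0.0468 and 0.035), and both calls were lost on leaving out any single val1 or val2 library or WT replicate 1 or 2.

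The nearest coding gene was set beside each region. Of the 281 regions called in val1 val2 against WT, 98 had a nearest coding gene that was tested and called as well, beside 58.5% of all features called. How many of the 281 had a tested nearest gene is not given, so the 2 cannot be compared as rates. In 52 the region and the gene moved in the same direction and in 46 in opposite directions. Within 100 bases these counts were 6 and 3, and at 1000 bases or more 20 and 24. Across 271 regions with a tested nearest gene the 2 differences correlated at 0.09 (Pearson, across regions of the same libraries, given as a description). For the 33 regions called in val1, 1 nearest gene was called, in the opposite direction, and likewise for the 21 in val2. Of all features 3.58% and 4.01% were called in these 2 comparisons. In val1 val2 against WT, AT5G35935 and its neighbour AT5G35940 moved apart, at differences of 2.40 and -1.03. This example was chosen after their values were seen.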

How the data were processed

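RNA of 12 libraries, 3 per genotype, was measured. The authors deposited 1 table of loci assembled without gene names per library, with FPKM values and confidence bounds, per the file headers. TopHat2 2.1.1, Cufflinks 2.2.1, Cuffdiff, MACS2 and build TAIR10 are named without roles in the submitters' processing notes. No read counts are given, so the depth is unknown. For val1 replicates 2 and 3 the name of the deposited table and the sample title differ, and the sample recorded for each table was used.

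Loci were matched by position to RefSeq genes of assembly TAIR10.1, used for names and neighbours only, and coordinates are as the files give them. A region's value is the sum of FPKM times locus length divided by region length. It is missing where loci that reach a coding gene cover at least 25% of the region and its own loci under 50%. Features with at least 1 FPKM in at least 3 libraries and 2 values per genotype entered 1 limma 3.58.1 fit (R 4.3.3) of log2(FPKM + 1) over 4 genotypes, with Benjamini-Hochberg adjustment over 18690 features. The steps were tested on simulated data. Numbers and shares of loci were compared by exact two-sided permutation tests (scipy 1.17.1). P-values measure the spread among these libraries, which the design text calls biological replicates.

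Named regions were the 10 largest called rises and falls per comparison whose groups do not overlap, tested microRNA and TAS regions, the 3 highest per class and the 5 longest, and exceptions are stated. Members, lists and rules were chosen with earlier results of these data known. Replicate numbers did not pair the libraries: deviations of same-numbered libraries correlated at -0.03 to 0.07.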

Additional observations from a re-analysis of the deposited data

Results flagged for a closer look

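For the regions below, all libraries of one comparison moved one way and all of the other the opposite way. Each difference is on the log2(FPKM + 1) scale, and the difference between the 2 values was not tested. Removal of VAL2 was read as val2 against WT and then as val1 val2 against val1, and removal of VAL1 as val1 against WT and then as val1 val2 against val2. Both readings share libraries.

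AT2G00840 had -3.02 (-3.025) in WT and 5.21 in the mutant background for either gene. With removal of VAL2, AT3G57157 had -1.16 in WT and 3.97 in val1, AT3G00800 -1.89 and 1.16, AT3G28160 -0.58 and 0.35, and AT4G08035 0.43 and -0.66. With removal of VAL1, AT5G00430 had 0.94 in WT and -3.40 in val2, AT3G06125 0.64 and -0.91, AT2G00680 0.68 and -0.49, and SNOR30 -1.01 (-1.015) and 0.69. The value of AT5G00430 in val1 against WT was lost or reversed under other settings.

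Loci on the plastid genome lie outside the comparisons made here. The val1 val2 libraries listed 20.3 ± 5.03 of them (SD, n = 3), from 15 to 25, against 4.67 ± 0.577 in WT, 4 to 5. The range was 0 to 7 in val1 and 6 to 10 in val2. The summed FPKM of the plastid loci went the other way. It was 551, 285 and 385 in val1 val2 against 2130, 4564 and 1791 in WT. In val1 it was 3959, 0 and 3232, and in val2 1494, 1849 and 745. The larger number of plastid loci is thus not a higher plastid level. No test was made.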

How the results depend on the processing

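Counts of called regions are given in the order val1, val2 and val1 val2 against WT, then val1 val2 against val1 and against val2. At least 500 bases from a coding gene they were 20, 12, 160, 148 and 154 of 219 tested. These were 9.13%, 5.48%, 73.1%, 67.6% and 70.3% of the tested regions, against 7.89%, 5.02%, 67.2%, 63.6% and 67.9% in the main setting. The difference in FPKM share of val2 from WT turned to -0.0172 percentage points at this distance. With a filter of 5 FPKM the counts were 18, 19, 141, 125 and 143 of 207 tested. Restricted to regions listed in every library, a setting added after the data were seen, they were 16, 9, 109, 94 and 105 of 166 tested. Without both libraries of unbroken VAL1, also added later, val1 val2 against val1 had 173 of 319 tested. Fewer regions were tested in each of these settings than the 418 of the main one, so the counts alone do not show a lower share called. The shares over all features under the first, second and last of them are not given. Leaving out single libraries gave 20 to 48, 9 to 30, 170 to 277, 150 to 261 and 167 to 278. The replicate block gave 27, 14, 281, 263 and 281.

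Median ratio scaling moved the median of all features in val1 val2 against WT from -0.14 to 0.04, with 194 regions called higher and 82 lower. Quantile normalization split the val2 calls into 11 higher and 12 lower. Without a filter 364 of 687 regions were called in val1 val2 against WT. Of named calls, 13 of 21 in val1, 7 of 17 in val2 and 70 of 88 in val1 val2 against WT held under each setting in which the region was tested. The calls tested and held in every setting were 7, 5 and 40. AT2G09010 in val1 val2 against val2 turned to -0.60 on the highest FPKM as listed. With 0 for missing values AT5G00430 in val1 against WT turned to -0.24 and GUT15 in val1 val2 against WT to 1.41. The cause was not tested. With no read counts, differences among low regions cannot be weighed against depth.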
